A study of Danio rerio with 12 samples.

Results

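Of 400 zebrafish genes with measured values in these hearts, 5 with names tied to blood or immunity are described here over all 12 libraries. They were picked by name from genes that earlier results of these data had listed for a difference between genotypes, and are the haem and erythroid genes alad and hemgn, the B-cell surface gene cd22, the immune regulator rfx5, and grnas. The table that holds them lists 32520 genes, and the other 32120, which have no values in it, were not analysed here. The libraries came from cardiac tissue of zebrafish (Danio rerio), as 3 biological replicates each of Tg(myl7:ATF3) fish at 12 months post-fertilization (mpf), wild-type siblings at 12 mpf, Tg(myl7:ATF3) fish at 4 mpf and wild-type siblings at 4 mpf. The line overexpresses ATF3, a stress-induced transcription factor, from the myl7 promoter, which is active in heart muscle cells. The labels do not say whether the replicates are single hearts or pools.

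Haem is made in every cell and in bulk by developing red cells, which fill it into haemoglobin. Hearts also hold blood and resident immune cells, among them macrophages and lymphocytes, so RNA from whole cardiac tissue includes theirs. The RFX complex switches on the genes that present antigen to T cells.

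The name of the group rests on gene symbols alone, and for grnas the annotation does not bear it out in full. Whether reads of the genes in the group came from blood or immune cells, or from the strand of the named gene, was not tested. The table annotates alad, hemgn, cd22 and rfx5 as protein-coding, but grnas as antisense, and RefSeq lists it as a long noncoding RNA. It is a transcript across the granulin genes grn1 and grn2 from the other strand, annotated as noncoding. The cells that these genes stand for could hardly be checked. Of 32 erythroid marker genes searched for, 30 are in the table and only hemgn had values. Of 19 B-cell genes, 14 are in the table and only cd22 had values. Of 32 granulin, lysosome and macrophage genes, 30 are in the table and only grnas had values. None of the T and NK cell, neutrophil, thrombocyte, cardiomyocyte, endothelial and fibroblast markers searched for had values. Of 25 cardiomyocyte genes, 23 are in the table and none had values, so the heart muscle identity of the tissue could not be read from them either.

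The choice of genes therefore rests on measured values. The earlier results had listed alad, hemgn and cd22 for their genotype difference at 4 mpf and cd22, rfx5 and grnas for that at 12 mpf. Genotype differences below are a description, with no test. The difference between the ages over both genotypes is a separate contrast, and it was tested. In this balanced design the genotype difference at either age adds nothing to its estimate. Many values are at 0 and the spread differs between groups, so its p-values are not free of the choice of genes. Values are FPKM, that is, fragments counted per kilobase of transcript and scaled for each library. The reads behind each value were recovered from the table, since every value was a whole number of reads within 0.0001. A value listed at 0 allows up to 3 reads per library, which is the floor used for bounds, and intervals and floors cover counting error only.

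Libraries of the 2 ages differed as a whole. Cytosolic rRNA genes held 18.0% to 41.3% of the recovered reads at 12 mpf and 82.7% to 90.4% at 4 mpf. Recovered reads summed over the 400 genes to between 133852 and 286257 in a library of 12 mpf and to between 589598 and 1092280 in one of 4 mpf, which is not the full depth. Outside rRNA and mitochondrial genes they were alike, at 32278 to 49326 and 30614 to 44673. Between 3 and 9 of the 400 genes were listed at 0 in a library of 12 mpf, against 46 to 193 in one of 4 mpf, where wild-type replicate 1 had the most. Among the 5 blood and immune genes, 2 of the zeros fell at 12 mpf and 16 at 4 mpf.

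**Figure D1:**
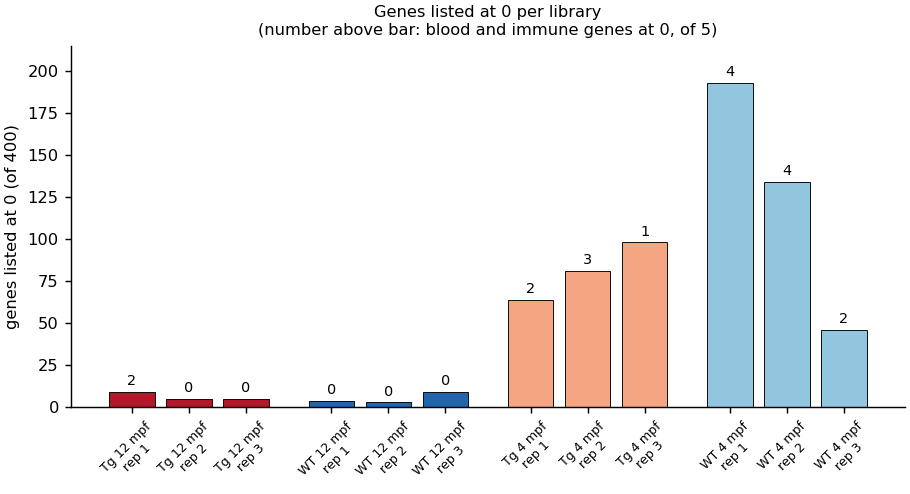
Bars give the number of the 400 genes listed at 0 in each library, by group and replicate, and the number above each bar is how many of the 5 blood and immune genes are at 0 there. Bars stay at 9 or below at 12 mpf and reach 193 in wild-type replicate 1 at 4 mpf.

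The 5 genes were sparsely covered, with 28 to 277 reads per library between them. By the median over the 12 libraries, cd22 stood at 19.8 FPKM, alad at 13.1, hemgn at 9.55, grnas at 4.50 and rfx5 at 3.87 FPKM. The median over all 400 genes was 22.1 FPKM, and all 5 lay below it. The kit reads only the end of a transcript, whereas FPKM divides by the whole length, so the order depends on length. As scaled reads without that division, cd22 led with a median of 17.8 reads, followed by alad with 15.8, hemgn with 11.4, rfx5 with 10.96 and grnas with 4.62 reads. The rfx5 transcript is the longest of the 5, with a recovered length of 5783 bases, and that of cd22 the shortest, with 1834 bases.

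**Figure D2:**
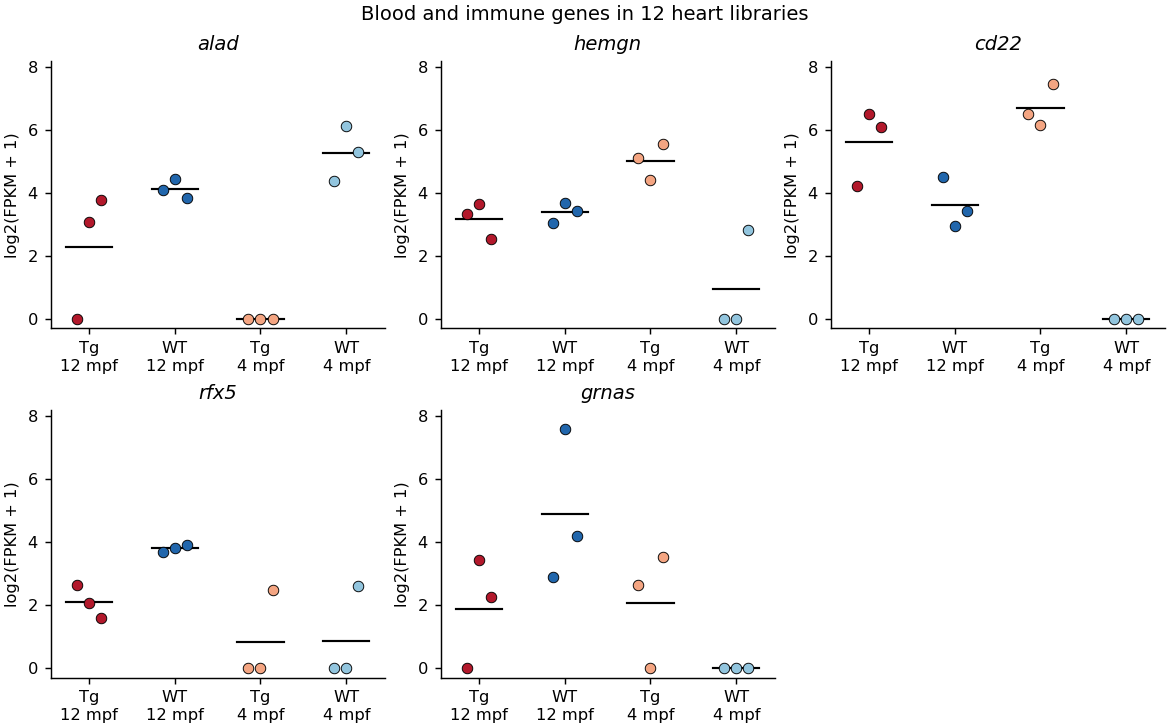
Each point is 1 library, on a scale of log2(FPKM + 1), with the groups in columns and a line at the mean of the 3 libraries. The plot shows cd22 at 0 in the 3 wild-type libraries of 4 mpf, alad at 0 in the 3 transgenic libraries of 4 mpf, and 1 wild-type library of 12 mpf far above the others for grnas.

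The haem enzyme gene alad was at 0 in every transgenic library at 4 mpf and had its highest group mean in wild-type hearts of that age. Its product, aminolevulinate dehydratase, makes porphobilinogen, an early precursor of haem. At 12 mpf alad stood at 0, 7.48 and 12.7 FPKM in transgenic libraries and at 13.5, 16.3 and 21.0 FPKM in wild-type libraries. In the 4 mpf libraries it was at 0 in all transgenic ones and stood at 19.9, 69.8 and 38.8 FPKM in wild-type ones, on 28, 95 and 45 reads.

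Transgenic libraries lay below all wild-type libraries for alad at both ages. The gap at 12 mpf was narrow, between 12.7 FPKM in a transgenic and 13.5 FPKM in a wild-type library, and the counting intervals of these 2 values overlapped (95% exact Poisson, 7.28 to 20.7 FPKM and 6.72 to 24.1 FPKM). The log2 difference was -1.85 (SE 0.98) at 12 mpf, and it was -0.71 without transgenic replicate 1, the library at 0. At 4 mpf mean alad was at least 18.7-fold lower in transgenic hearts, a bound against the mean floor of 2.29 FPKM. It leaves out the spread of the wild-type libraries, 19.9 to 69.8 FPKM. Reads that are copies of 1 molecule would lower that bound. Such a run of 3 zeros in the younger transgenic hearts was found in 1.75% of the 400 genes. In this bulk tissue, fewer cells of a type, less RNA per cell and a difference in reads of the other strand cannot be told apart.

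The erythroid gene hemgn had the opposite sign at 4 mpf, and its groups overlapped at 12 mpf. It codes for hemogen, a nuclear protein that in mice and humans promotes the maturation of red cell precursors. At 12 mpf its libraries were at 9.22, 11.7 and 4.82 FPKM in transgenic hearts, a mean of 8.59 ± 3.50 FPKM, and at 7.31, 11.9 and 9.87 FPKM in wild-type hearts, a mean of 9.68 ± 2.28 FPKM (SD, n = 3 each). At 4 mpf hemgn reached 33.8, 20.5 and 45.8 FPKM in transgenic libraries, against 0, 0 and 6.09 FPKM in wild-type libraries.

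All transgenic values of hemgn at 4 mpf lay above all wild-type ones, with a log2 difference of 4.09 (SE 0.90) and a ratio of mean FPKM of 16.4. The wild-type level there rests on 7 reads in 1 library. With 10 or 0.1 added to FPKM in place of 1, the log2 difference at 4 mpf was 1.84 or 6.33. The difference at 12 mpf was -0.21 (SE 0.90), with an interval from -2.17 to 1.76. Between the ages, hemgn was lower at 12 than at 4 mpf in every transgenic library and higher in every wild-type library. The wild-type gap was narrow, from 6.09 FPKM on 7 reads at 4 mpf to 7.31 FPKM on 8 reads at 12 mpf. The counting intervals of these values overlapped (95% exact Poisson, 2.45 to 12.6 FPKM and 3.15 to 14.4 FPKM). The 2 zeros of hemgn lie in the wild-type libraries with 193 and 134 of the 400 genes at 0, and their part in these differences was not tested.

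Both genes belong to red cell biology, yet their genotype differences at 4 mpf had opposite signs. Of 24 genes of haem synthesis and breakdown, 23 of them in the table, the only other one with values was hmox2a, a haem oxygenase that degrades haem. It was above 0 in all libraries except wild-type replicate 1 of 4 mpf, with 21.8, 10.9 and 13.9 FPKM in transgenic and 13.3, 8.01 and 20.9 FPKM in wild-type hearts at 12 mpf. In the younger hearts it had 8.59, 11.2 and 12.7 FPKM in transgenic and 0, 13.7 and 22.3 FPKM in wild-type hearts. Its log2 difference between genotypes was 0.17 at 12 mpf (limma, adjusted p = 0.999) and 0.74 at 4 mpf (limma, adjusted p = 0.778). Neither passed the threshold of 0.05. By limma 0.00% of the 400 genes passed at 12 mpf, with 13 genes at an unadjusted p under 0.05 and 2 passing with arrayWeights, and 3.25% passed at 4 mpf. The sign of hmox2a at 4 mpf turned to -0.66 without wild-type replicate 1.

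The B-cell gene cd22 was higher in transgenic hearts at 4 mpf, where it was not seen in any wild-type library. CD22 is a sialic acid-binding receptor that dampens B-cell receptor signals in mice and humans. At 12 mpf it stood at 17.7, 90.3 and 68.4 FPKM in transgenic libraries, a mean of 58.8 ± 37.2 FPKM, and at 21.9, 6.76 and 9.85 FPKM in wild-type libraries, a mean of 12.8 ± 7.98 FPKM (SD, n = 3 each). The wild-type value of 21.9 FPKM lies above the transgenic one of 17.7 FPKM, so these groups overlapped. At 4 mpf cd22 was at 91.0, 70.3 and 177 FPKM in transgenic libraries, on 91, 80 and 148 reads, and at 0 in all wild-type libraries.

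The log2 difference of cd22 was 1.98 (SE 0.90) at 12 mpf and 6.72 (SE 0.90) at 4 mpf. The size at 4 mpf depends on the 1 added to FPKM, since every wild-type value there was 0. That difference also put cd22 on the list, so its size among the 400 genes is not read. As a ratio of means the cd22 difference was 4.58 at 12 mpf, and at 4 mpf at least 36.4-fold higher against the mean floor of 3.10 FPKM. That bound leaves out the spread of the transgenic libraries, 70.3 to 177 FPKM, and reads that are copies of 1 molecule would lower it. The wild-type libraries of 4 mpf had 193, 134 and 46 of the 400 genes at 0. The part of such zeros in the cd22 difference was not tested. Of all 400 genes, 5.25% were listed at 0 in the 3 wild-type libraries of 4 mpf, grnas among them. At 12 mpf none of the 5 blood and immune genes was at 0 in all 3 libraries of a genotype, where 0.250% of all genes were in transgenic and 0.250% in wild-type hearts. Whether B cells were more frequent in these hearts could not be read from other genes, since no other gene of the B-cell list had values.

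The antigen presentation regulator rfx5 was lower in transgenic hearts at 12 mpf and barely detected at 4 mpf. In humans RFX5 binds DNA as a subunit of the RFX complex at MHC class II promoters. At 12 mpf its values were 5.19, 3.18 and 2.03 FPKM in transgenic hearts, a mean of 3.47 ± 1.60 FPKM, and 11.9, 13.2 and 14.1 FPKM in wild-type hearts, a mean of 13.1 ± 1.06 FPKM (SD, n = 3 each). The groups did not overlap at 12 mpf, as was so for 20.0% of the 400 genes. Recovered reads were 6 to 12 in transgenic and 27 to 37 in wild-type libraries. The younger hearts had a value in replicate 3 alone, 4.55 FPKM in transgenic and 5.14 FPKM in wild-type hearts, and 0 in the other 2 libraries of each genotype.

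The genotype difference of rfx5 was -1.71 on the log2 scale (SE 0.89) at 12 mpf, or 3.77 times more in wild-type hearts by mean FPKM. Its 95% interval ran from -3.66 to 0.23 and so included 0. At 4 mpf the difference was -0.05 (SE 0.89). The other gene of the complex with values was rfxap, of 28 genes of the RFX complex and antigen presentation, 27 of them in the table. It had 212, 136 and 103 FPKM in transgenic libraries and 35.5, 148 and 66.8 FPKM in wild-type libraries at 12 mpf. The 4 mpf values were 87.7, 46.9 and 187 FPKM in transgenic and 0, 11.3 and 36.8 FPKM in wild-type libraries.

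The groups of rfxap overlapped at 12 mpf and stood apart at 4 mpf. Its log2 difference was 1.01 at 12 mpf (SE 1.17, limma, adjusted p = 0.999) and 3.58 at 4 mpf (SE 1.17, limma, adjusted p = 0.177), and neither passed. Of 21 alternatives at 4 mpf only 1 passed, the fit without wild-type replicate 3 of that age (4.73, limma, adjusted p = 0.0182). In that fit 37 genes passed, against 13 with all libraries. The highest adjusted p among the alternatives was 0.702 (limma with arrayWeights). The row of rfxap overlaps smad9, a transducer of BMP signals on the other strand that also has values. On that strand it also overlaps CT573139.2, an antisense gene with values, over 596 bases.

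The antisense gene grnas had its highest group mean in wild-type hearts at 12 mpf, where 1 library decided its level. At 12 mpf it stood at 0, 9.77 and 3.74 FPKM in transgenic libraries and at 6.39, 193 and 17.3 FPKM in wild-type libraries. Wild-type replicate 2 held 195 reads, against 6 and 12 in the other wild-type libraries, and the groups overlapped. Among hearts of 4 mpf it was at 5.26, 0 and 10.5 FPKM in transgenic libraries and at 0 in each wild-type one.

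The log2 difference of grnas was -2.999 (SE 1.31) at 12 mpf, and -1.65 without wild-type replicate 2 of that age. At 4 mpf this was 2.06 (SE 1.31), on at most 10 reads in a library. Both granulin genes opposite it, grn1 and grn2, were not analysed here, nor were grna and grnb.

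**Figure D3:**
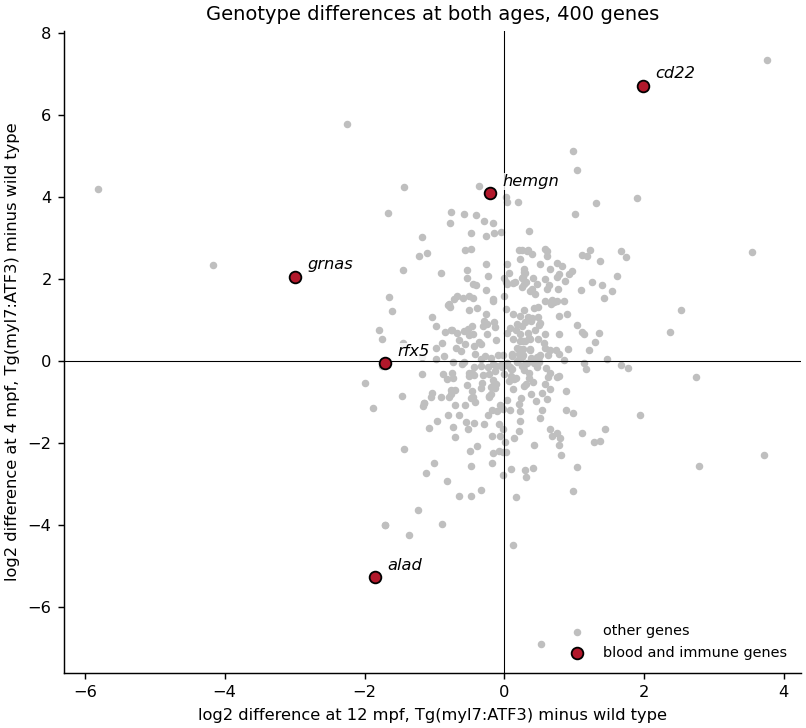
Each point is 1 of the 400 genes, with the log2 difference between transgenic and wild-type hearts at 12 mpf on the horizontal axis and that at 4 mpf on the vertical axis, and the 5 blood and immune genes in red. The red points for cd22 and alad lie toward opposite corners, at 1.98 and 6.72 and at -1.85 and -5.28, and grnas lies at -2.999 and 2.06.

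Side by side, alad was lower and cd22 higher in transgenic hearts at both ages. The other 3 genes had differences near 0 at one age or opposite signs at the ages. Of the 5 genes, 2 did not overlap between genotypes at 12 mpf, alad and rfx5, where 20.0% of the 400 genes did not. At 4 mpf 3 did not overlap, alad, hemgn and cd22, where 12.0% of all genes did not. These contrasts chose the genes, so nothing is read from the counts.

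Between the ages, over both genotypes, rfx5 passed narrowly as higher at 12 mpf, a call most alternatives lost, and the other 4 genes did not pass. Values of rfx5 were 2.03 to 14.1 FPKM with a median of 8.57 FPKM in the 6 libraries of 12 mpf. They were 0 to 5.14 FPKM with a median of 0 FPKM in the 6 of 4 mpf. The log2 difference was 2.11 (SE 0.63, limma, adjusted p = 0.0484), and 5.14 FPKM in a library of 4 mpf exceeds 2 of the values at 12 mpf. Of all 400 genes, 12.5% passed, 40 higher and 10 lower at 12 mpf, so 1 of 5 is near the background. The libraries of 12 mpf that put rfx5 on the list also enter this test.

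Of 21 alternatives 15 lost the call for rfx5 (limma, adjusted p from 0.00828 to 0.110 over all of them). Among them were 10 of the 12 fits that leave out 1 library, all but those without transgenic or wild-type replicate 3 of 4 mpf, the 2 libraries of that age in which rfx5 was seen. Within genotypes it was 1.27 (SE 0.89) in transgenic and 2.94 (SE 0.89) in wild-type hearts, values that share libraries with the genotype differences above and were not tested.

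The log2 differences of the others between 12 and 4 mpf were 2.36 for grnas (SE 0.93, limma, adjusted p = 0.114) and 1.27 for cd22 (SE 0.64, adjusted p = 0.197). They were 0.57 for alad (SE 0.69, adjusted p = 0.604) and 0.30 for hemgn (SE 0.64, adjusted p = 0.759). The list genes rfxap and hmox2a did not pass either, at 1.93 (limma, adjusted p = 0.141) and 0.73 (limma, adjusted p = 0.555). For rfxap 1 of 21 alternatives passed, without wild-type replicate 3 of 4 mpf (2.50, limma, adjusted p = 0.0340). In that fit 94 genes passed, against 50 with all libraries. All 5 blood and immune genes had a positive difference with a median of 1.27, where 77.0% of the 400 genes were positive with a median of 0.91. None of the 5 had separate ages over all 12 libraries, where 6.50% of all genes did.

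**Figure D4:**
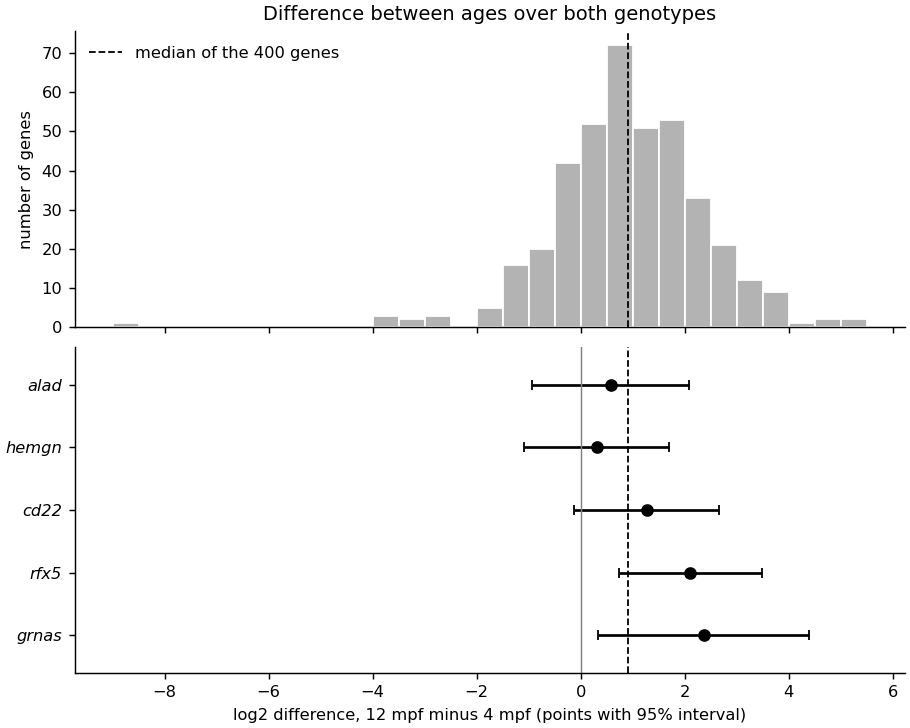
The upper panel counts the 400 genes by their log2 difference between 12 and 4 mpf over both genotypes, and the lower panel gives the 5 blood and immune genes with 95% intervals. The dashed line marks the median of all genes, at 0.91, which lies inside the interval of each of the 5 genes.

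Within transgenic hearts 1 of the 5 genes had ages that did not overlap, hemgn, lower at 12 mpf, against 33.5% of all 400 genes, 11.2% of them lower. Within wild-type hearts 4 had, hemgn, cd22, rfx5 and grnas, each higher at 12 mpf, against 24.2% of all genes, 16.8% of them higher. The wild-type libraries of 1 age, or for cd22 of both, also entered the genotype differences that chose each of these genes. For that reason nothing is read from this count either. Wild-type libraries of 4 mpf hold 10 of the 18 zeros of the 5 genes. Among transgenic and wild-type hearts the log2 difference between ages was 2.29 and -1.14 for alad, -1.84 and 2.45 for hemgn, and -1.10 and 3.64 for cd22. It was -0.16 and 4.89 for grnas. As all libraries of 4 mpf had more rRNA reads and more zeros than those of 12 mpf, age and library quality cannot be told apart.

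By group means, cd22 ran from transgenic hearts at 4 mpf (113 FPKM) over transgenic and wild-type hearts at 12 mpf (58.8 and 12.8 FPKM) to wild-type hearts at 4 mpf, and each neighbouring pair overlapped except the last. For hemgn the order was transgenic at 4 mpf, wild type at 12 mpf, transgenic at 12 mpf and wild type at 4 mpf, where each neighbouring pair overlapped except the first. For alad it was wild type at 4 mpf, wild type at 12 mpf, transgenic at 12 mpf and transgenic at 4 mpf, and here the first pair overlapped, as did the last, through a shared 0. For rfx5 wild-type hearts at 12 mpf led and the other 3 groups overlapped. For grnas only both ages of wild-type hearts stood apart.

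Across the 12 libraries the genes did not move as a block. Pearson r of log2(FPKM + 1) was 0.81 between hemgn and cd22, -0.75 between alad and cd22 and -0.74 between alad and hemgn, pairs that share the genotype difference at 4 mpf by which they were chosen. With group means taken out, the same pairs had an r of 0.01, 0.62 and -0.09. The highest value with group means taken out was 0.84, between hemgn and rfx5, which share zeros in the same wild-type libraries of 4 mpf. All r are over 12 libraries that share depth and zeros, and they describe these libraries.

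For each gene, the genes most like it were sought among those with a proper symbol by the same r. For hemgn they were cdadc1 (r = 0.89), a nucleoside deaminase gene, and ascc2 (0.88), both with 2 zeros as in hemgn, and with group means taken out they stood at 0.86 and 0.82. For cd22 they were oard1 (0.93), an ADP-ribose hydrolase gene above 0 in all libraries, and ctps1a (0.92), a CTP synthase gene with 3 zeros. With group means taken out these were 0.49 and -0.37. For rfx5 they were cant1b (0.84), a nucleotidase gene, and pla1a (0.82), a phospholipase row annotated as a polymorphic pseudogene, at 0.92 and 0.61 with group means taken out. For grnas mpp6a and znf644a both reached 0.76, and 0.48 and 0.46 with group means taken out. For alad garem reached 0.77 and cilp, a matrix protein gene, 0.67, and with group means taken out 0.61 and 0.02. None of these 10 genes is in the blood and immune lists searched, and each was the best of many, so a high r is no finding.

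All 5 genes have the 3' end of a gene on the other strand inside them or within 5000 bases. Among the 400 genes with values 87.5% do, and among those with no values 28.5%, so the 5 are like the rest of the measured genes in this. The kit marks the strand of the RNA. For the counting, no strand setting is given in the sources used here, so reads of a gene cannot be told apart from those of its partner. A median of 91.2% of the mitochondrial protein reads was listed under mt-nd6, which lies on the opposite strand to the other mitochondrial protein genes. Over the libraries this share ran from 60.2% to 96.4%. An opposite 3' end lay inside 58.5% of the genes with values and 9.93% of those without. Whether reads were counted under the gene on the opposite strand was not tested. Coordinates below are on GRCz11, as in the table.

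The hemgn gene (ENSDARG00000096667, chromosome 1, 26667872 to 26671210, plus strand) shares its last 383 bases with the end of trmo, a tRNA methyltransferase gene. The cd22 gene (ENSDARG00000053005, chromosome 16, 44906324 to 44917748, plus strand) faces ncam3, a neural adhesion gene whose 3' end lies 2264 bases past that of cd22. For rfx5 (ENSDARG00000063258, chromosome 19, 7482784 to 7495006, minus strand) the deubiquitinase gene mindy1 ends 4187 bases past its 3' end, and a short rRNA row, BX927401.3, lies inside.

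The remaining pair lies differently. For alad (ENSDARG00000100372, chromosome 5, 54482325 to 54497319, minus strand) the nearest opposite 3' end is that of tmem203, 1798 bases before the 5' end of alad and 16792 bases from its 3' end. The grnas gene (ENSDARG00000091885, chromosome 19, 40186385 to 40205463, plus strand) holds grn1 and grn2 whole, over 5573 and 2637 bases. Every partner in this paragraph and the last was without values, so the pairs could not be compared.

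**Figure D5:**
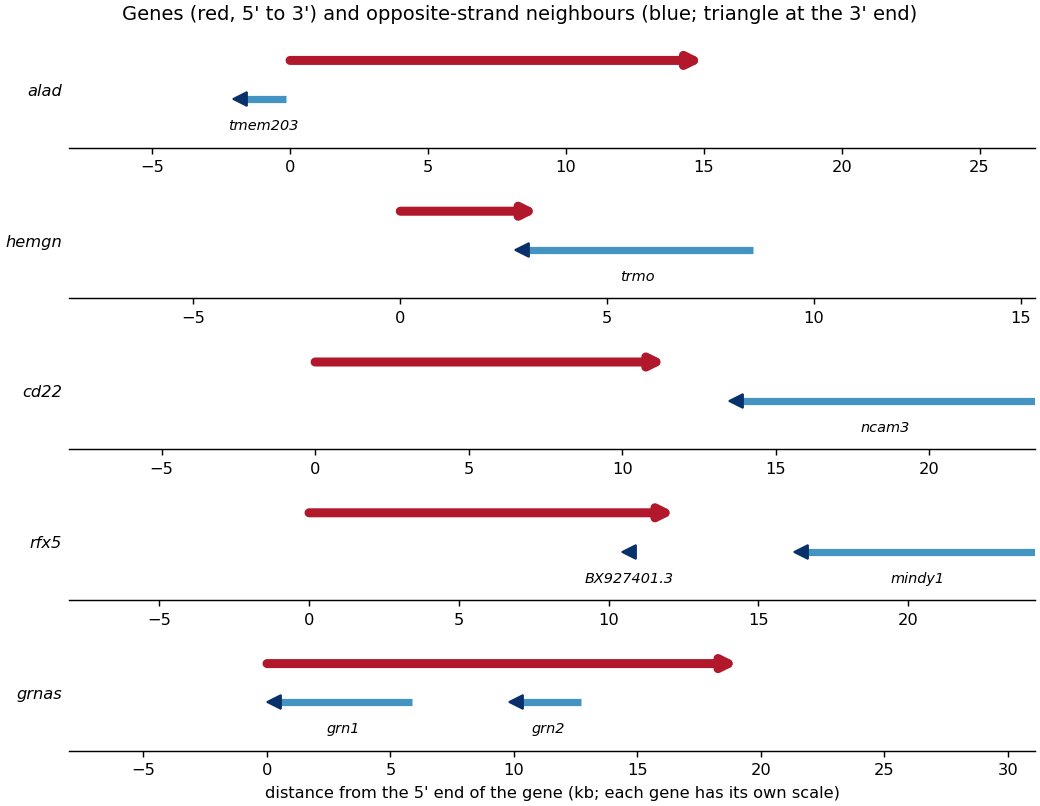
Each row draws a blood or immune gene in red from its 5' to its 3' end, with opposite-strand neighbours in blue and a triangle at their 3' ends, over distance from the 5' end of the gene in kb. In hemgn the neighbour trmo reaches into the end, in cd22 and rfx5 a neighbour ends 2264 and 4187 bases past the end, and in alad it lies before the start.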

How the data were processed

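RNA of 12 cardiac libraries was made into QuantSeq 3' FWD libraries (oligo-dT priming, sense strand, 75-base single-end reads), per the labels' protocols. The authors deposited 1 table of FPKM values. Trim Galore, STAR, RSEM, DESeq2 and the build GRCz11 appear in the submitters' processing notes, and their roles, versions and the strand setting are not stated there. All 12 value columns were matched to libraries by name. The genes and the gene lists were chosen with earlier results of these data known, and 1 of the 6 genes chosen is not reported here.

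Whole reads were recovered from a factor per library, solved on 12 mitochondrial protein genes, and a length per gene, which worked for all 400 genes within 0.0001 reads. All 400 genes passed a filter of 1 FPKM or more in 3 or more libraries and were fitted as log2(FPKM + 1), which understates changes of low genes, with 1 mean per group in limma 3.58.1 (R 4.3.3, eBayes with trend and robust), two-sided, with Benjamini-Hochberg adjustment over the 400 genes and a threshold of 0.05. The fit was tested on simulated data. Named genes were the other 5, their opposite-strand partners, the 2 genes most like each, and list genes with values. Alternatives changed the pseudocount, filter, scaling, model, weights, replicate block and single libraries. Figures and counts used Python 3.11.15, matplotlib 3.10.9, scipy 1.17.1, numpy 2.4.6 and pandas 2.3.3.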

Additional observations from a re-analysis of the deposited data

Results flagged for a closer look

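The erythroid gene hemgn was singled out because its change between the ages ran in opposite directions in the 2 genotypes, in every library. It was at 4.82 to 11.7 FPKM at 12 mpf and 20.5 to 45.8 FPKM at 4 mpf in transgenic hearts, and at 7.31 to 11.9 FPKM at 12 mpf and 0 to 6.09 FPKM at 4 mpf in wild-type hearts. The nearest wild-type values, 7.31 and 6.09 FPKM, rest on 8 and 7 reads, and their counting intervals overlapped. The change from 4 to 12 mpf in transgenic hearts minus that in wild-type hearts was -4.30 on the log2 scale. The difference was not tested, since the same libraries of 4 mpf had put hemgn on the list. Only the 5 genes were searched for such opposite changes, so their share among the 400 genes is not known. Ages did not overlap for 33.5% of the 400 genes in transgenic hearts and for 24.2% in wild-type hearts. The zeros of hemgn lie in the wild-type libraries of 4 mpf with 193 and 134 of the 400 genes at 0. Groups of 3 libraries are too small for a check of single outlying libraries.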

How the results depend on the processing

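The number of genes that passed between the ages, 50 with 40 higher and 10 lower at 12 mpf, was 79 (64 higher) by limma voom on recovered reads, 31 (26 and 5) by eBayes without trend and robust, and 18 to 94 (13 to 82 higher, 5 to 12 lower) without 1 library. With a replicate block within age it was 24 (19 and 5), and with one over all groups, added after the data were seen, 30 (23 and 7). Same-numbered libraries did not deviate together, with correlations from -0.41 to 0.07 over 12 pairs. Depth and zeros also enter these deviations, so they cannot exclude that same-numbered libraries were paired. Genotype counts were 13 at 4 mpf, with 8 at a pseudocount of 10, 21 by limma voom, 0 by arrayWeights, 0 with the block within age and 9 to 37 without 1 library. At 12 mpf they were 0 (13 at an unadjusted p under 0.05), with 2 by arrayWeights and 0 to 1 without 1 library.

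The age difference of rfx5 missed the threshold at 4.17 with a pseudocount of 0.1, 2.02 with median-of-ratios scaling, 2.11 without trend and robust, 1.96 with arrayWeights, 2.11 with the replicate block over all groups and 1.89 to 2.23 without any 1 of 10 libraries (limma, adjusted p from 0.0553 to 0.110). It passed at 2.52 and 2.54 without transgenic or wild-type replicate 3 of 4 mpf. That of cd22 passed at 2.86 with a pseudocount of 0.1 (limma, adjusted p = 0.0399). With a pseudocount of 10 it turned to -0.10 for alad and -0.23 for hemgn. The list gene hmox2a was at -0.15 to 0.49 at 12 mpf and -0.66 to 1.61 at 4 mpf between genotypes without 1 library. For all of these the cause was not tested. Of 420 alternative values for the genotype and within-genotype differences of the 5 genes, 200 could not move by construction (the filter, the moderation, the blocks and libraries outside the contrast). Of the other 220, 199 moved by less than the spread between replicates, 21 by more, and 9 changed sign (hemgn at 12 mpf, rfx5 at 4 mpf, and grnas in transgenic hearts between ages). Few reads per library limit all of these values.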
